A study of Oryza sativa Japonica Group with 6 samples.

Results

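The microRNA probes described here are the 127 probes, outside the miR397, miR398, miR408 and miR528 families, that were detected on all 3 arrays of at least 1 group. The array carries 510 probes for rice (Oryza sativa) microRNAs among 42429 gene probes. They stand for 170 precursors with 3 probes each, whose names end in 5'seq, 3'seq or Mature, and each probe was printed in 2 spots. Leaving out the 4 families named above left 492 probes of 164 precursors in 41 families. A probe was counted as detected on an array where the scanner software marked it well above background, and a member had to be detected on all 3 Line13 arrays or on all 3 WT arrays. The 127 members come from 76 precursors and 25 families, and the same detection rule took 13 probes of the 4 families left out. The members were thus chosen by detection, which is read from the same signals as the levels, in both groups. The direction of a member detected through 1 group only is thus largely set by the rule, and such members are described without a test. In outline, of the 64 members detected on all 6 arrays, 2 rose (3.1%) and 13 fell (20.3%) in Line13, against 20.6% higher and 28.5% lower among all features detected on all 6 arrays. Both arm probes of miR396c, of miR171d and of miR166l were detected on every Line13 array and on no WT array. The rule used this detection, so it is a description and not a test. The lower bounds on their fold, explained below, were 7.23 and 3.65 for the 3'seq and 5'seq probes of miR396c. They were 2.05 and 1.63 for those of miR171d, and only 1.58 and 1.06 for those of miR166l.

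The samples were 3 arrays of Line13, a transgenic line made to overexpress linalool synthase, and 3 arrays of wild type (WT), cultivar Nipponbare. Both groups were untreated plants grown at 25 °C, and RNA came from the fourth-leaf blade at the 4-leaf stage, with at least 3 plants pooled per biological replicate. Line13 is a single transgenic line, and no source used here names the promoter that drives its transgene. All values are log2 processed signal minus the log2 of the array's 75th percentile, called the level below, and every difference is Line13 minus WT on that log2 scale.

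The arrays set limits on these comparisons. The 75th percentile of the processed signal was 325, 1559 and 932 on the Line13 arrays, against 720, 883 and 959 on the WT arrays. Line13 replicate 1 was thus the dimmest array. The correlation over the 22254 features (loci or single probes) tested below was 0.902 to 0.979 within Line13. It was 0.977 to 0.991 within WT and 0.604 to 0.740 between the groups. The 3 Line13 arrays lay on 1 slide and the 3 WT arrays on another, so slide and genotype cannot be told apart. The locus Os02g0121700, known as a rice linalool synthase gene, had levels of -6.52, -5.84 and -3.65 on the Line13 arrays, against -3.32, -0.92 and -1.50 on the WT arrays, a difference of -3.43 (SE 0.904, limma adjusted p = 0.0185). The locus was detected on only 2 Line13 arrays and entered the fit through WT only, which favours a lower level in Line13. A lower level there does not match an overexpressing line, so "Line13" below means the arrays labelled Line13. No source used here says whether the transgene carries the sequence of this probe.

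Markers of tissue also differed between the groups. The summed linear level of 5 leaf mesophyll markers was 410 to 918 in Line13, against 945 to 1167 in WT, and none of the 5 passed the test. The summed level of 4 markers of dividing cells was 5.92 to 10.6 in Line13, against 0.492 to 0.765 in WT, with 4 of 4 higher in Line13 and 2 of them on no WT array. The summed level of 2 root-associated genes was 24.5 to 29.5 in Line13, against 0.00743 to 0.0145 in WT, and both were on no WT array. The part of these shifts in the microRNA results was not tested. In bulk tissue, fewer cells of a type and less RNA per cell cannot be told apart.

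MicroRNAs are short RNAs cut from hairpin precursors, first by a Dicer-like enzyme in plants, and then loaded into an Argonaute protein that silences matching messenger RNAs. Their primary transcripts are made by RNA polymerase II and carry a poly(A) tail. Several families are conserved across land plants and act on transcription factors: miR156 on SPL genes in phase change, miR164 on NAC genes, miR166 on HD-ZIP III genes in leaf polarity, miR169 on NF-YA genes, and miR396 on GRF growth regulators. The labelling kit used here primes cRNA synthesis from poly(A) RNA, so the probes may read the primary transcript. The files do not define 5'seq, 3'seq and Mature, which are taken below as the names of probes and not as measurements of mature microRNA.

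Among the members, 49 were 5'seq probes, 46 were 3'seq probes and 32 were Mature probes, which is 29.9%, 28.0% and 19.5% of the 164 probes of each kind. Members were detected on all 6 arrays in 64 cases, on all Line13 arrays but not all WT arrays in 31, and on all WT arrays but not all Line13 arrays in 32. Of the 31, 19 were on no WT array, 7 on 1 and 5 on 2. Of the 32, 2 were on no Line13 array, and 26 were missing from Line13 replicate 1 alone. The lowest level of a spot well above background was -5.47, -7.88 and -6.87 on the Line13 arrays, against -5.94, -5.97 and -6.14 on the WT arrays. Line13 replicates 2 and 3 thus detected dimmer spots than any WT array, so these counts do not show expression in 1 group only. Per array, 95, 125 and 121 members were detected in Line13, against 105, 101 and 99 in WT. Of the 365 probes that were not members, 245 were detected on no array and 49 on 2 arrays of a group, just short of the rule. The highest mean level of a probe outside the rule was -5.65 (miR166b 3'seq), and the lowest of a member was -6.96 (miR166l 5'seq). Of 48 probes that stand for no rice gene, 6 would meet the detection rule.

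The differences of the 64 members detected on all 6 arrays were tested in a limma fit over 22254 features. At an adjusted p under 0.05, 2 of the 64 were higher in Line13 (3.1%) and 13 were lower (20.3%). Among all 18007 features detected on all 6 arrays, 20.6% were called higher in Line13 and 28.5% were called lower, so in this setting the share of members called was below that of the features in each direction. Their median difference was -0.17, against -0.15 for those 18007 features. The groups did not overlap in 3 members that were higher in Line13 and 17 that were lower, against 27.6% and 37.3% of the features detected on all 6 arrays. The 2 members higher in Line13 were miR166c 3'seq and miR169c 5'seq. The 13 lower ones were 3'seq probes of miR156d, miR156h, miR162a, miR164b, miR169h, miR169n, miR169p and miR442, 5'seq probes of miR169l and miR441b, and the Mature probes of miR160e, miR394 and miR414. Without Line13 replicate 1, the dimmest array, 26 were lower and 2 higher, and without WT replicate 2 the counts were 3 lower and 1 higher. Without Line13 replicate 2 they were 4 lower and 1 higher, and without WT replicate 1 they were again 4 lower and 1 higher. Without Line13 replicate 3 they were 10 lower and 3 higher, and without WT replicate 3 they were 9 lower and 1 higher. Only miR166c 3'seq and miR169p 3'seq, of the 15, stayed past the threshold whichever single array was left out. Scaling moved the counts too, to 1 higher and 20 lower with the array median, 0 and 23 after quantile normalisation, 0 and 2 after normexp background correction, and 0 and 1 without scaling between arrays. None of the 15 kept its call under every one of these settings. The calls of miR166c 3'seq and miR169p 3'seq were both lost after normexp and without scaling, and that of miR166c 3'seq also after quantile normalisation. The share lower was 31.2% of members, against 39.0% of features, with the array median, and 3.1% against 23.5% after normexp. After quantile normalisation it was 35.9% of members, against 32.6% of features, and without Line13 replicate 1 it was 40.6% against 35.0%, so the share of members lower was above that of the features in those settings. With any other single array left out, 4.7% to 15.6% of members were lower, against 18.0% to 28.7% of features. In those fits 1.6% to 4.7% of members were higher, against 14.3% to 21.6% of features.

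By kind, of 21 tested 3'seq probes, 8 were lower and 1 was higher, with a median difference of -0.51. Of 21 tested 5'seq probes, 2 were lower and 1 was higher (median -0.07), and of 22 tested Mature probes, 3 were lower and none was higher (median 0.00). Among all features detected on all 6 arrays, 28.5% were lower and 20.6% higher, with a median of -0.15. Line13 replicate 1 gave the highest of the 3 Line13 levels in 20 of the 22 Mature probes, 15 of the 21 5'seq probes and 11 of the 21 3'seq probes, against 9143 of the 18007 features. The median SD among replicates of the Mature probes was 0.598 in Line13, against 0.247 in WT. It was 0.636 against 0.311 for the 3'seq probes and 0.478 against 0.243 for the 5'seq probes. Over all features detected on all 6 arrays it was 0.387 against 0.161, so the larger spread in Line13 was not particular to Mature probes. No difference between the kinds of probe was tested.

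miR168 and miR162 act on the microRNA machinery itself: miR168 targets AGO1, the main slicing Argonaute, and miR162 targets DCL1, the Dicer that makes microRNAs. The 3'seq probe of miR168a, whose precursor lies on chromosome 2 per the probe name, had levels of 2.90, 2.27 and 2.72 in Line13, against 2.71, 2.57 and 2.52 in WT. Its 5'seq probe had levels of 1.82, 0.93 and 1.35 in Line13, against 1.38, 1.41 and 1.39 in WT. The groups overlapped for both probes, with differences of 0.03 (SE 0.223, limma adjusted p = 0.922) and -0.03 (SE 0.26, limma adjusted p = 0.935). These sizes are under the spread among the Line13 arrays, and the Mature probe of miR168a differed by 0.46 (SE 0.258, limma adjusted p = 0.17). Of 4 members of miR162, 3 were detected on all 6 arrays, and all 3 had negative differences under each scaling tried. Of these, miR162a 3'seq passed the test. It had levels of -5.23, -5.12 and -5.06 in Line13, against -4.07, -4.68 and -4.26 in WT, and fell by 0.80 (SE 0.218, limma adjusted p = 0.0208). The groups did not overlap for this probe. The call was lost with each of Line13 replicate 2, WT replicate 1 and WT replicate 3 left out, and after normexp or without scaling between arrays.

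miR169 targets NF-YA subunits of the CCAAT-binding factor, which in Arabidopsis act in drought and nitrogen responses. Its 19 members, from 13 of 16 precursors, are 10 5'seq and 9 3'seq probes, and none is a Mature probe. Of 8 members detected on all 6 arrays, 4 fell and 1 rose, and the difference was below 0 in 7 of the 8 under the scaling used here, in 6 after normexp background correction and in 8 after quantile normalisation. The other 11 were detected through WT only, so the rule largely set their direction.

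The 3'seq probe of miR169h (chromosome 8) had levels of -5.38, -3.58 and -3.03 in Line13, against -2.07, -1.84 and -2.20 in WT, and fell by 1.96 (SE 0.586, limma adjusted p = 0.029). Its 5'seq probe had levels of -6.12, -3.43 and -2.83 in Line13, against -2.05, -1.69 and -2.02 in WT. Line13 replicate 1 was far below the other Line13 arrays on both, and the groups did not overlap. The 3'seq call was lost when any single WT array was left out. The 5'seq probe of miR169l, also on chromosome 8, had levels of -4.45, -4.10 and -3.45 in Line13, against -2.79, -2.58 and -2.98 in WT, and fell by 1.22 (SE 0.297, limma adjusted p = 0.014). Its 3'seq probe had levels of -6.24, -3.73 and -3.23 in Line13, against -2.40, -2.32 and -2.66 in WT. Again no Line13 array reached the WT range, and the 5'seq call was lost without WT replicate 2. On chromosome 4, miR169g 5'seq had levels of -5.06, -3.42 and -2.89 in Line13, against -2.53, -2.45 and -2.92 in WT, and its difference of -1.16 did not pass the test (SE 0.55, limma adjusted p = 0.118). Its 3'seq probe had levels of -5.63, -3.41 and -2.83 in Line13, against -2.58, -2.57 and -3.18 in WT, and the groups overlapped for both.

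The precursors miR169g to miR169m gave 13 members, 3 of them detected on all 6 arrays and 10 through WT only. Line13 replicate 1 was the lowest array in 13 of 13. Their differences ranged over -2.35 to -1.16, and over -1.41 to -0.34 with Line13 replicate 1 left out. Probes of one family share sequence, so the 13 are not independent of one another.

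Of the other miR169 members, miR169p 3'seq (chromosome 8) had levels of -4.43, -4.89 and -4.65 in Line13, against -2.24, -2.88 and -3.30 in WT, and fell by 1.85 (SE 0.309, limma adjusted p = 0.00325). Here Line13 replicate 1 was the highest of the Line13 arrays and every Line13 array lay below every WT array. The miR169p call was lost after normexp and without scaling between arrays. On chromosome 11, miR169n 3'seq had levels of -3.84, -5.07 and -4.86 in Line13, against -2.85, -3.02 and -3.80 in WT. It fell by 1.37 (SE 0.41, limma adjusted p = 0.0293), and the call was lost without Line13 replicate 2, Line13 replicate 3, WT replicate 1 or WT replicate 2. The exception was miR169c 5'seq on chromosome 4, with levels of -4.66, -4.69 and -4.90 in Line13, against -5.14, -5.36 and -5.48 in WT. It rose by 0.57 (SE 0.189, limma adjusted p = 0.0403) under this scaling, but its difference was -0.14 after quantile normalisation (limma adjusted p = 0.621).

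miR164 targets NAC genes, among them the CUC boundary genes of Arabidopsis. Its 7 members are 3 5'seq and 4 3'seq probes of 4 precursors. Of these, 5 were detected through WT only, which largely set their direction, and of the 2 detected on all 6 arrays 1 fell. miR164b 3'seq (chromosome 5) had levels of -3.07, -4.50 and -3.92 in Line13, against -1.15, -1.93 and -2.68 in WT, and fell by 1.91 (SE 0.502, limma adjusted p = 0.0183). The groups did not overlap, and the call was lost without Line13 replicate 2, WT replicate 1 or WT replicate 2. The other member detected on all 6 arrays was miR164d 3'seq, and its difference of -0.60 did not pass the test (SE 0.599, limma adjusted p = 0.423). miR164c 3'seq, also on chromosome 5, was not well above background on any Line13 array. Its levels were -7.30, -7.93 and -8.07 in Line13, against -5.09, -5.72 and -5.55 in WT, which is at least 2.44-fold lower in Line13. Such bounds set the mean of the detected group against the higher, on each array of the other group, of the probe's own signal and the lowest signal of any spot well above background. They carry no test, since detection chose the probe.

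miR160 targets the auxin response factors ARF10, ARF16 and ARF17 of Arabidopsis and their rice relatives. All 6 precursors gave a 5'seq and a Mature member, and 4 gave a 3'seq member. The 6 Mature probes had negative differences under each scaling tried (median -1.21). Of the 6 5'seq probes, 5 were detected on all 6 arrays, and none of the 5 passed the test. Their differences were positive in 5 of 5 under the scaling used here, in 3 with the array median as the scale and in 1 after quantile normalisation. Line13 replicate 1 was the highest Line13 array in all 6 5'seq probes, and without it the differences of the 6 were -0.53 to 0.71 (median -0.05). The Mature probe of miR160e (chromosome 7) had levels of -2.61, -3.80 and -3.39 in Line13, against -0.38, -1.80 and -2.14 in WT. It fell by 1.83 (SE 0.53, limma adjusted p = 0.0263), with no overlap of the groups, and the call was lost without Line13 replicate 2, Line13 replicate 3, WT replicate 1 or WT replicate 2. From the same precursor, miR160e 5'seq differed by 0.89 (SE 0.418, limma adjusted p = 0.113).

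The Mature probes of miR160a, miR160b, miR160c and miR160d followed the same pattern over the 6 arrays, with precursors on chromosomes 2, 6, 8 and 3. Their levels were -3.76 to -3.45, -5.11 to -4.96 and -5.64 to -5.33 on the Line13 arrays, against -2.75 to -2.70, -4.08 to -3.71 and -4.21 to -3.89 on the WT arrays. Replicate 1 was the highest array within each group, and the groups overlapped. Their differences were -1.25 to -0.93, none passed the test, and without Line13 replicate 1 the differences were -1.80 to -1.49. miR160d 3'seq was on no WT array, with levels of -5.23, -5.41 and -6.19 in Line13, against -8.11, -7.85 and -8.30 in WT, which is at least 1.33-fold higher in Line13. The 3'seq probe of miR160b had levels of -6.48, -5.98 and -6.10 in Line13, against -3.94, -4.39 and -4.42 in WT, and was missing from 1 Line13 array.

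miR166 targets the HD-ZIP III genes that set the upper side of the leaf and the vascular pattern. It gave the most members, 24 probes from 12 of 13 precursors. Of its 10 members detected on all 6 arrays, 1 rose and none fell. Differences of the 10 were above 0 in 8 under the scaling used here, in 2 with the array median as the scale, in 3 without scaling between arrays and in 1 after quantile normalisation, so the direction depends on the scaling. The one that rose was miR166c 3'seq (chromosome 3), with levels of -4.66, -4.36 and -4.43 in Line13, against -5.32, -5.33 and -5.29 in WT. It rose by 0.83 (SE 0.177, limma adjusted p = 0.00841) with no overlap of the groups, and its difference was 0.12 after quantile normalisation (limma adjusted p = 0.567).

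Several arm probes of miR166 were detected in Line13 and on no WT array. miR166a 5'seq (chromosome 10) had levels of -5.51, -4.68 and -5.26 in Line13, against -7.26, -7.17 and -7.24 in WT, which is at least 1.82-fold higher in Line13. Its 3'seq probe, which was detected on 2 WT arrays, had levels of -4.34, -4.09 and -4.77 in Line13, against -5.73, -5.74 and -6.09 in WT. Neither probe overlapped between the groups. The 3'seq probes of miR166l and miR166m were on no WT array, at least 1.58- and 1.44-fold higher in Line13, or 1.37- and 1.34-fold without Line13 replicate 1. The 5'seq probes of miR166b, miR166d, miR166e and miR166l were also on no WT array, and each was at least 1.06- to 1.38-fold higher in Line13. miR166b 5'seq had levels of -4.46, -6.41 and -6.19 in Line13, against -6.69, -6.67 and -6.96 in WT, and miR166d 5'seq had levels of -4.26, -6.50 and -5.88 in Line13, against -6.73, -7.43 and -7.59 in WT. Line13 replicate 1 was far above the other Line13 arrays on both, and without it neither they nor miR166e 5'seq kept a bound above 1. In the other direction, miR166h 5'seq and miR166m 5'seq, detected on all 6 arrays, had differences of -0.40 and -0.66 that did not pass the test (limma adjusted p = 0.484 and 0.0586).

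The Mature probes of miR166a, miR166b, miR166c, miR166d, miR166f and miR166n had differences of 0.00 to 0.45, none of which passed the test. Those of miR166e and miR166h differed by -0.78 and 0.59, with no overlap of the groups, also without Line13 replicate 1. Neither was detected on all 6 arrays, so neither was tested. The Mature probes of miR166k, miR166l and miR166m were highest on Line13 replicate 1, at -3.71 to -3.07, and lay at -6.87 to -5.61 and -6.19 to -5.40 on the other Line13 arrays, against -6.80 to -5.92 on the WT arrays. Their differences of 0.61 to 1.44 thus rest on 1 array, and were -0.29 to 0.63 without it. The Mature probe of miR166g was detected on all Line13 arrays and on no WT array, yet its levels were -5.84, -5.78 and -6.37 in Line13, against -5.90, -5.73 and -6.32 in WT. Detection differed there while the difference in level was -0.01.

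miR396c had the largest bounds on the Line13 side. miR396 targets GRF genes, which promote cell division in young leaves, and miR171 targets GRAS genes of the HAM group, which maintain meristems. miR396c 3'seq (chromosome 2) had levels of -3.04, -3.05 and -3.39 in Line13, against -7.46, -7.84 and -7.92 in WT, and was on no WT array. It was at least 7.23-fold higher in Line13, the largest bound among the members. Its 5'seq probe had levels of -4.58, -3.87 and -3.99 in Line13, against -6.75, -6.78 and -7.20 in WT, at least 3.65-fold higher in Line13. Both arm probes of miR396c thus had all Line13 arrays above all WT arrays. The arm probes of miR396d (chromosome 4) differed from each other: the 5'seq probe had levels of -3.26, -4.80 and -4.41 in Line13, against -5.82, -6.01 and -6.00 in WT, while the 3'seq probe differed by -0.15 (SE 0.29, limma adjusted p = 0.691).

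All 5 miR171 members, from 3 of 9 precursors, were detected through Line13 only, so the rule largely set their direction and none was tested. miR171d 3'seq (chromosome 10) had levels of -4.65, -5.37 and -4.91 in Line13, against -7.68, -6.90 and -7.59 in WT, at least 2.05-fold higher in Line13. Its 5'seq probe had levels of -5.17, -5.62 and -5.14 in Line13, against -7.33, -7.67 and -7.97 in WT, at least 1.63-fold higher in Line13. Both had clear gaps between the groups. For miR171a and miR171i the Line13 levels rested more on replicate 1, as for miR171a 3'seq with levels of -3.83, -6.41 and -6.20 in Line13, against -6.75, -6.26 and -6.91 in WT. The only miR319 member, miR319b 3'seq, whose family targets TCP genes of leaf growth, differed by -0.21 (SE 0.48, limma adjusted p = 0.736).

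miR156, miR159 and miR167 gave few members. miR156 holds back SPL genes in the juvenile phase, and 7 probes of 4 of its 11 precursors were members. miR156d 3'seq (chromosome 2) had levels of -1.47, -1.89 and -1.45 in Line13, against -0.31, -0.74 and -1.03 in WT, and fell by 0.91 (SE 0.256, limma adjusted p = 0.0229). Its 5'seq probe had levels of -6.98, -6.46 and -5.82 in Line13, against -4.83, -5.22 and -5.33 in WT. Neither probe of miR156d overlapped between the groups. The 3'seq probe of miR156h (chromosome 6) had levels of -3.01, -4.21 and -3.97 in Line13, against -1.78, -2.58 and -2.92 in WT, and fell by 1.31 (SE 0.425, limma adjusted p = 0.0384). The miR156d call was lost without Line13 replicate 2, WT replicate 1 or WT replicate 2, and the miR156h call without any of these or without Line13 replicate 3. The Mature probe of miR156k was on no WT array, with levels of -4.33, -6.51 and -6.38 in Line13, against -7.14, -7.08 and -6.79 in WT. Its bound of at least 1.21-fold higher in Line13 rests on Line13 replicate 1, and without that array no fold can be given.

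miR159 targets GAMYB genes of gibberellin signalling. miR159a 3'seq (chromosome 1) had levels of -3.75, -2.72 and -2.41 in Line13, against -2.47, -2.28 and -2.01 in WT, a difference of -0.71 (SE 0.371, limma adjusted p = 0.148). Its 5'seq probe had levels of -2.61, -2.32 and -2.12 in Line13, against -2.23, -2.20 and -1.84 in WT, a difference of -0.26 (SE 0.219, limma adjusted p = 0.344). The groups overlapped for both, and neither passed the test. miR167, which targets ARF6 and ARF8 in Arabidopsis, gave members from 1 of 10 precursors. The miR167h probes were missing from Line13 replicate 1 and differed by -1.59 (5'seq) and -1.11 (3'seq), with no overlap. Without that array the differences were -1.06 and -1.05.

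miR399, which targets the PHO2 ubiquitin conjugase of phosphate balance, gave 9 members, and miR394, which targets an F-box gene, gave 1. The Mature probes of miR399e, miR399f, miR399g and miR399h lay at -1.63 to -1.34 on Line13 replicate 1, and at -3.95 to -3.65 and -3.72 to -3.21 on the other Line13 arrays, against -3.66 to -2.93, -3.73 to -3.20 and -3.97 to -3.37 on the WT arrays. Only Line13 replicate 1 stood apart. Their differences of 0.41 to 0.71 did not pass the test, and were -0.27 to -0.05 without that array. Before scaling, their processed signals were 105 to 128, 101 to 124 and 70.6 to 101 on the Line13 arrays, against 57.0 to 94.8, 66.4 to 96.1 and 61.4 to 92.8 on the WT arrays. The unscaled signals of replicate 1 were thus close to those of Line13 replicate 2, whose 75th percentile was several times higher. The Mature probes of miR399i and miR399k differed by -1.27 and -2.10, or by -1.53 and -2.87 without Line13 replicate 1. Their groups did not overlap, but both were detected through WT only, which largely set their direction, and neither was tested. miR399i 3'seq, detected on all 6 arrays, differed by 0.01 and did not pass the test. The 5'seq probe of miR399h was on no Line13 array, with levels of -6.71, -8.16 and -7.34 in Line13, against -5.41, -5.83 and -6.07 in WT, at least 1.96-fold lower in Line13. miR399d 3'seq (chromosome 6) was on no WT array, with levels of -3.81, -5.76 and -5.32 in Line13, against -6.34, -6.03 and -6.33 in WT. It was at least 2.07-fold higher in Line13, and at least 1.39-fold without Line13 replicate 1. The Mature probe of miR394 (chromosome 2) fell by 1.16 (SE 0.319, limma adjusted p = 0.0216), and lost its call without Line13 replicate 2, Line13 replicate 3, WT replicate 1 or WT replicate 2. No probe of the 23 miR395 precursors, a family that acts on sulfate assimilation, was a member, and neither was any of miR172, miR390 or miR393.

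The remaining families carry higher numbers and have less known roles. miR419 5'seq (chromosome 12) had levels of 2.20, 1.66 and 2.32 in Line13, against 2.23, 2.02 and 1.61 in WT, a difference of 0.10 (SE 0.27, limma adjusted p = 0.762). Its 3'seq probe had levels of -7.40, -7.09 and -9.03 in Line13, against -1.78, -1.49 and -1.42 in WT, and was detected on 1 of 3 Line13 arrays. The Line13 levels of miR419 3'seq on the other 2 arrays are not well above background, so its difference is not given as a size, while the groups overlapped for the other arm probe. The 5'seq probe of miR441b (chromosome 7) had levels of -1.06, -1.16 and -0.96 in Line13, against -0.30, -0.30 and -0.41 in WT, and fell by 0.73 (SE 0.17, limma adjusted p = 0.0121). The miR441b call was lost without Line13 replicate 2 or WT replicate 2.

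The 3'seq probe of miR442 fell by 0.79 (SE 0.184, limma adjusted p = 0.0118), a call lost without WT replicate 3. For miR414, the 5'seq probe had levels of -1.78, -2.73 and -2.25 in Line13, against -2.62, -2.51 and -2.73 in WT, and the 3'seq probe had levels of -3.04, -4.93 and -3.85 in Line13, against -4.05, -4.32 and -4.21 in WT. These overlapped, with differences of 0.37 and 0.26 (limma adjusted p = 0.291 and 0.662), while the Mature probe fell by 0.57 (SE 0.195, limma adjusted p = 0.0463). The miR414 Mature call was lost in 4 of the 6 fits that left out 1 array. The Mature probes of the miR531 precursors on chromosomes 8 and 11 differed by -0.68 and -0.86 without passing the test, and their 5'seq probes, missing from 1 Line13 array, differed by -2.18 and -2.14. Of 4 miR439 members, none was detected on all 6 arrays, and 3 were highest on Line13 replicate 1, with differences of 0.64 to 1.31 that were -0.20 to 0.36 without that array. Members of miR415, miR440, miR529 and miR441a and miR441c, detected on all 6 arrays, differed by -0.51 to 0.76 and did not pass the test. The miR418 5'seq and miR535 3'seq probes were each missing from 1 Line13 array and differed by -2.29 and -1.86, or by -1.61 and -1.81 without Line13 replicate 1.

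Both arm probes were members for 28 precursors, so that 2 probes reported on each of these. Both arms were detected on all 6 arrays in 5 of these, and the signs of their differences were the same in 4 of the 5. Both were detected through the same single group in 10, which favours a shared sign (10 of 10), and in the other 13 the sign was shared in 9. The median absolute gap between the 2 differences over the 28 was 0.54. The largest gaps were those of miR419 and of miR160b, miR396d, miR396c and miR166m. The Mature probe was also a member for 9 of the 28, and was detected on no array for 12.

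Some precursors share a locus ID with ordinary gene probes, which the rule did not use. There were 13 such loci with a value on all 6 arrays, with 17 gene probes, and the whole-table fit tested 10 loci, of which 4 were higher and 2 lower in Line13. The share of all 22254 features called was 26.8% higher and 28.0% lower. The gene probe had the sign of all the arm members of its locus in 4 of the 10, the opposite sign in 3, and the arms differed in sign in 3. The sign of an arm detected through 1 group only was largely set by that detection. The fit also kept gene probes detected through 1 group only: Os05g0339300 and Os04g0674500 through Line13, and Os12g0604000 through WT. Detection favoured their direction, so their calls are not a free test of it.

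Where the gene probe followed the arms, Os02g0180800 (miR156d) had levels of -1.67, -0.92 and -0.84 in Line13, against 0.45, 0.17 and -0.08 in WT, and fell by 1.33 (SE 0.291, limma adjusted p = 0.0094). Os12g0604000 (miR167h) had levels of -6.62, -5.44 and -5.59 in Line13, against -3.66, -4.40 and -4.28 in WT, and fell by 1.77 (SE 0.378, limma adjusted p = 0.00854). The groups did not overlap for either locus. Os12g0604000 was detected on only 2 Line13 arrays and entered the fit through WT only, which favours a lower level in Line13. Os02g0804000 (miR396c) had levels of -5.79, -4.87 and -5.00 in Line13, against -8.22, -8.24 and -8.41 in WT, but was detected on only 2 Line13 arrays and not tested. All Line13 arrays lay above all WT arrays there, as for both miR396c arm probes. For Os04g0674500 (miR396d), whose arm probes differ in sign, the gene probe was detected on every Line13 array and no WT array, at least 2.43-fold higher in Line13 (limma adjusted p = 0.00258). This call was lost after quantile normalisation (limma adjusted p = 0.0627) and after normexp.

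In 3 loci the gene probe went against the arms. Os05g0339300 (miR164b) had levels of -3.74, -2.86 and -3.68 in Line13, against -8.05, -8.06 and -8.20 in WT, and was on no WT array. It was at least 6.02-fold higher in Line13 (limma adjusted p = 4.57e-05), a direction favoured by its entry into the fit through Line13 only. Both miR164b arm probes had lower levels in Line13. Os06g0649600 (miR156h) had levels of 1.70, 0.65 and 0.55 in Line13, against -0.47, -0.66 and -0.84 in WT, and rose by 1.62 (SE 0.343, limma adjusted p = 0.0082), while miR156h 3'seq fell. Os02g0602900 (miR162a) had levels of -4.06, -4.47 and -4.41 in Line13, against -5.20, -5.16 and -5.02 in WT. It rose by 0.81 (SE 0.195, limma adjusted p = 0.013), a call lost without WT replicate 2 and under 4 other ways of scaling or background correction, while miR162a 3'seq fell. The groups did not overlap for these 3 gene probes. After normexp Os12g0604000 also lost its call, and without scaling between arrays, of the 6 loci called, only Os05g0339300 kept its call. Whether a gene probe and the hairpin lie on 1 transcript is not given in the files.

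For Os02g0129700 (miR168a), the gene probe in the fit differed by 0.29 (SE 0.267, limma adjusted p = 0.383), and a second gene probe of the locus had levels of -4.39, -2.29 and -1.90 in Line13, against -0.64, -0.92 and -0.65 in WT. The probes of this locus therefore disagree. For Os01g0507000 (miR159a) the difference of -1.02 did not pass the test (SE 0.372, limma adjusted p = 0.0562).

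Loci known as targets of these families were read from lists written from general knowledge of rice, whose annotation the files do not hold, so they are given by locus ID. Of 74 listed target loci, 63 were tested, 26 were higher and 13 lower in Line13, with a median difference of 0.72, against 26.8% higher, 28.0% lower and a median of -0.07 over all features. Loci detected through 1 group only entered the fit too, which favours a call in that direction, as it does among all features. Among GRF genes listed for miR396, 9 of 10 tested were higher in Line13 and 5 of these were on no WT array. Only 3 of the 10 were detected on all 6 arrays, and 2 of those 3 were higher. The others entered the fit through Line13 only, which favours a higher level there. Os02g0701300 of that list had levels of -1.28, -1.74 and -1.85 in Line13, against -4.92, -5.39 and -5.66 in WT, and rose by 3.70 (SE 0.272, limma adjusted p = 0.000109). Os12g0484900 was on no WT array and at least 32.2-fold higher in Line13. The miR396c arm probes were not tested, and dividing-cell markers were also higher in Line13, whose part was not tested.

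The lists for other families ran in different directions. All 4 TCP loci (miR319) and all 4 ARF loci (miR167) were higher in Line13, as were 4 of 9 SPL loci (miR156), 3 of 5 HD-ZIP III loci (miR166) and 2 of 5 AP2 loci (miR172), with none lower. On no WT array were 1 of these TCP loci and 1 of the higher AP2 loci. The ARF locus Os04g0671900 had levels of 3.07, 2.49 and 2.14 in Line13, against -1.10, -0.95 and -0.89 in WT, and rose by 3.55 (SE 0.273, limma adjusted p = 0.000129). Among SPL loci, Os08g0509600 had levels of -0.08, -1.39 and -2.05 in Line13, against -4.77, -5.11 and -5.64 in WT, and rose by 4.003 (SE 0.523, limma adjusted p = 0.00122). Neither locus overlapped between the groups.

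Lower in Line13 were 4 of 7 NF-YA loci (miR169), 2 of 3 HAM loci (miR171), 1 of 4 NAC loci (miR164), 1 of 2 ARF loci listed for miR160 and the 1 GAMYB locus (miR159), with none higher. Os03g0174900, listed as an NF-YA gene, had levels of -2.53, -2.83 and -2.60 in Line13, against -1.53, -1.48 and -1.52 in WT, and fell by 1.14 (SE 0.177, limma adjusted p = 0.00245). The NAC locus Os08g0200600 had levels of -3.53, -3.75 and -3.63 in Line13, against 1.41, 0.83 and 0.95 in WT, and fell by 4.70 (SE 0.218, limma adjusted p = 1.72e-05). Both had wide gaps between the groups. The lists for miR444 and miR827, which have no member here, had 2 of 2 MADS loci and 2 of 2 SPX-MFS loci lower in Line13. The SPX-MFS locus Os02g0678200 entered the fit through WT only. None of the tested loci passed for miR393 (2 loci), miR395, miR399 and miR820 (1 locus each).

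Of 13 tested loci of the microRNA machinery (Dicer-like, Argonaute, HEN1, RDR6 and SGS3 genes), 5 were higher and 2 lower in Line13, against 26.8% and 28.0% of all features. Of the 12 detected on all 6 arrays, 4 were higher and 2 lower, against 20.6% and 28.5% of the features detected on all 6 arrays. Os06g0729300 of that list had levels of 1.87, 0.97 and 1.11 in Line13, against -1.35, -0.998 and -0.92 in WT, and rose by 2.41 (SE 0.292, limma adjusted p = 0.000896). Os07g0471300 had levels of -3.27, -3.29 and -2.18 in Line13, against -1.04, -0.87 and -1.38 in WT, and fell by 1.82 (SE 0.352, limma adjusted p = 0.00584). With the array median as the scale, 2 of the machinery loci were higher and 2 lower.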

How the data were processed

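Total RNA of 6 samples (3 Line13, 3 WT) was labelled with Cy3 from 100 ng and hybridised to 1-colour rice arrays, per the labels' protocols. The deposited scanner files hold spot intensity on a linear scale, measured with Agilent Feature Extraction 10.10.1.1, per the file headers, with background subtracted. The authors' deposited value table is also an intensity, and within a column it is a fixed multiple of the processed signal. From the processed signal, log2 minus the array's 75th percentile over non-control spots was computed, and the 2 spots of a probe were averaged. 48 probes that stand for no gene were then left out. A probe was detected where at least 50% of its spots were well above background. Features were loci (the brightest tested probe) and each microRNA probe, kept where detected on all 3 arrays of a group: 22113 loci, 140 microRNA probes and 1 other. They were fitted with limma 3.58.1 (lmFit, eBayes) in R 4.3.3, with Benjamini-Hochberg adjustment over all 22254 and a threshold of 0.05, and the script was tested on simulated data. With 3 against 3 arrays an exact permutation test cannot go below p = 0.1, so none was used. The number of arrays limits the precision. The median absolute difference between 2 spots of a member was 0.199 (log2). No member was saturated. The brightest members, the largest called differences, the largest bounds and the precursors with both arm probes were named with their values on each array, as were up to 3 loci per list by smallest p, and other probes singled out in the text were chosen after their values were seen. Members and lists were chosen with earlier results of these data known. The replicate numbers do not pair the samples: same-numbered arrays' deviations correlated at 0.109, -0.025 and -0.004. No sequence is printed, as none was used here.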

Additional observations from a re-analysis of the deposited data

How the results depend on the processing

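Many members had signals near background, and the counts called moved with the processing and with single arrays. Of the 64 members detected on all 6 arrays, 2 were higher and 13 lower in the main setting. The count higher was 1 with the array median as the scale, 0 after quantile normalisation, 0 after normexp, 0 without scaling between arrays and 1 with no filter on dim probes. The count lower was 20, 23, 2 and 1 under the first 4 of these. Machinery loci higher were 2 with the array median and 2 without scaling, where 0 were lower. Without scaling, 3054 features were higher and 2077 lower, with 17 and 3 target loci. Testing only features detected on all 6 arrays gave 3793 higher features, 17 higher target loci and 64 microRNA probes, since fewer features are tested. With the array median, 4701 features were higher and 8332 lower, against 5955 and 6234, and the median difference of all features was -0.38, against -0.25 after quantile normalisation and -0.07 in the main setting. Leaving out 1 array gave 4702 to 7093 higher and 4072 to 7523 lower features, 1 to 3 higher and 3 to 26 lower members, 22 to 31 higher and 11 to 16 lower target loci, 2 to 5 higher and 2 to 3 lower machinery loci, and 127 to 156 probes that met the detection rule. The difference of miR169c 5'seq reversed to -0.139 after quantile normalisation. Apart from where an alternative tests fewer features, the cause was not tested. With the replicate number as a block, 2 members were higher and 15 lower, and 5517 features were higher and 5402 lower; 2 of 6 arrays correlated best with the array of their own number, and the block lost the calls of miR162a 3'seq, miR169c 5'seq and miR414 Mature (limma adjusted p = 0.0521, 0.0788 and 0.11). The normexp setting used spot medians, as the files hold no spot means, and it, the fit without scaling and the rule that needs both spots (111 members) were chosen after seeing the data. Normexp on spot means was not run, and neither was the slide as a block, since each slide holds 1 group.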
